A study of Mus musculus with 32 samples.

Results

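The comparison described here set stem-enriched bone marrow cells against lineage-negative progenitors that carry cKit but not Sca-1. Its members were chosen by their labels: 3 stem-enriched samples, which the array records describe as Lin-Sca-1+cKit+, and 3 samples titled Lin-Sca-1-cKit+. Each RNA was hybridised to 2 Affymetrix chip types, MOE430A and MOE430B (called A and B), so the comparison used 12 of the 32 arrays and 6 of the 16 RNA samples of the series. All cells were sorted by flow cytometry from mouse marrow after removal of cells with lineage markers, with a stated purity above 90% in both groups. The stem-enriched preparations held 7.6 to 29 ten-thousands of cells at 10 ng/µl RNA, and the Lin-Sca-1-cKit+ preparations 50 to 60 ten-thousands at 11 to 315 ng/µl. The sources used here give no strain, age or number of animals, so the p-values measure the spread between these samples, which may be technical.

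Immature cells of mouse marrow are commonly divided by a pair of proteins of their surface, Sca-1 and the receptor cKit. The Lin-Sca-1+cKit+ gate holds the stem cells and the multipotent progenitors, some of which already express early lymphoid genes. The Lin-Sca-1-cKit+ gate holds mainly progenitors committed to the myeloid, erythroid and megakaryocytic lineages. The array measures a population average, in which fewer cells of a type and less RNA per cell cannot be told apart.

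Lin-Sca-1-cKit+ replicate 2 stood apart. Its Pearson correlation of log2 signal with the other 15 samples was 0.571 to 0.69, against 0.74 to 0.934 among the others. Its Gapdh 3'/5' probe ratio, a measure of how far labelled RNA reached towards the 5' end, was 0.38 on chip type A (log2). The ratio was 4.17, 3.84 and 3.98 in stem-enriched cells, against 3.18 and 2.68 in Lin-Sca-1-cKit+ replicates 1 and 3. The ratio therefore differed between the populations in every sample, also with replicate 2 left out, and its part in the results was not tested beyond the fit with the ratio as a covariate given below. Stem-enriched and Lin-Sca-1-cKit+ arrays never shared a scan day, so the day of scanning cannot be told apart from the population. Tested differences and list counts are given with and without replicate 2. A list's count is also given for each left-out sample of the 2 populations, and for the fits with the Gapdh covariate, with scan day as a random block on chip type A, or within the chip lot of chip type A that both populations shared, where it moved by over 1.5 times in a direction that had calls. The fit within the shared lot kept Lin-Sca-1-cKit+ replicates 2 and 3 and lost replicate 1, so the outlying replicate 2 weighed more there. Of the other populations only Lin-Sca-1-cKit- replicates 2 and 3 were in that lot. For the lists described, a direction printed as 0 with all samples had at most 2 calls in these fits, except primary granule genes.

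**Figure D1:**
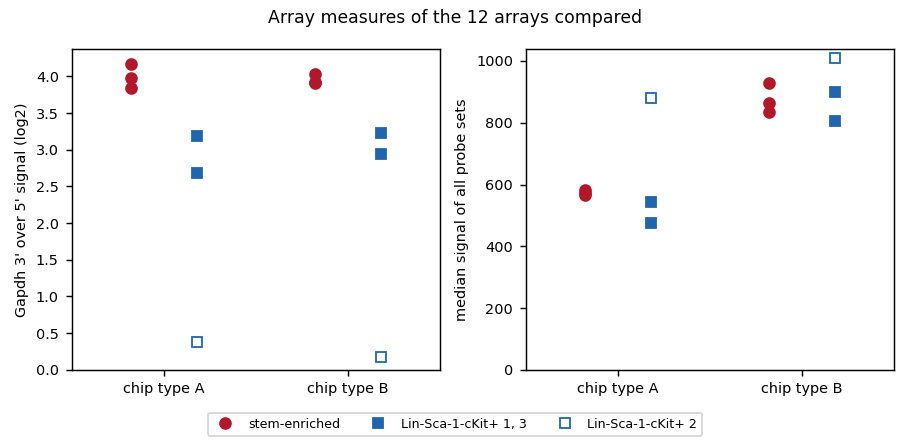
Gapdh 3'/5' log2 signal ratio (left) and median signal of all probe sets (right) of the 12 arrays, by chip type, with stem-enriched samples left of Lin-Sca-1-cKit+ samples and 1 point per array. Lin-Sca-1-cKit+ replicate 2 (open square) has the lowest ratio and the highest median on both chip types, and the stem-enriched arrays have the highest ratios.

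The sort markers were checked first. Kit, the receptor for stem cell factor and the marker both gates share, had a signal of 4476, 5050 and 4971 in stem-enriched cells, against 4272, 4686 and 5139 in Lin-Sca-1-cKit+ cells. The groups overlapped, with a log2 difference of 0.04 ± 0.23 (SE; adjusted p = 0.959) and 0.04 ± 0.25 (adjusted p = 0.965) without replicate 2. Ly6a, which encodes Sca-1, was not analysed here, so the marker that separates the gates could not be checked. Lineage markers were read on the log2 scale. Ms4a1, the B cell protein CD20, was 9.26, 8.91 and 8.83 in stem-enriched cells, against 8.02, 10.88 and 8.73 in Lin-Sca-1-cKit+ cells. Cd3e, a T cell receptor subunit, lay between 7.36 and 8.48 in stem-enriched cells, against 7.34 to 9.17 in Lin-Sca-1-cKit+ cells. Itgam, a myeloid integrin, lay between 7.34 and 7.9 in stem-enriched cells, against 7.34 to 9.13 in Lin-Sca-1-cKit+ cells. The highest value of all 3 genes was that of Lin-Sca-1-cKit+ replicate 2.

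Across 13583 genes, each read by its brightest tested probe set, 244 rose (1.8%) and 89 fell (0.655%) in stem-enriched cells at an adjusted p under 0.05 in limma. Without replicate 2, 297 rose (2.19%) and 183 fell (1.35%). Both fits shared 198 risen and 74 fallen genes, and in each of these the 3 stem-enriched samples lay outside the range of all 3 Lin-Sca-1-cKit+ samples. Over all genes, groups without overlap were found for 9.3% with stem-enriched cells higher and 7.32% with stem-enriched cells lower. By probe set, 640 of 28949 passed, 427 higher and 213 lower, and 834 passed without replicate 2, 497 higher and 337 lower. Before adjustment, 4647 of the 28949 had a p under 0.05 in limma, and 4622 without replicate 2. This share over all probe sets is the base for the unadjusted counts given below. The median log2 difference of all genes was -0.002, and 0.01 without replicate 2. These calls rest on a spread shared by 5 populations: with only the compared 2 in the fit, 3 probe sets passed, and 14 without replicate 2. With the Gapdh ratio as a covariate 328 probe sets passed, and 8 without replicate 2.

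Below, signals are MAS5 values in arbitrary units in the order of replicates 1, 2 and 3, where 162 (chip type A) and 268 (chip type B) are the floors to which lower values were raised. Differences are log2 of stem-enriched over Lin-Sca-1-cKit+, from limma with Benjamini-Hochberg adjustment over all probe sets. Each is that of the gene's brightest tested probe set, and other probe sets of a gene can differ from it.

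**Figure D2:**
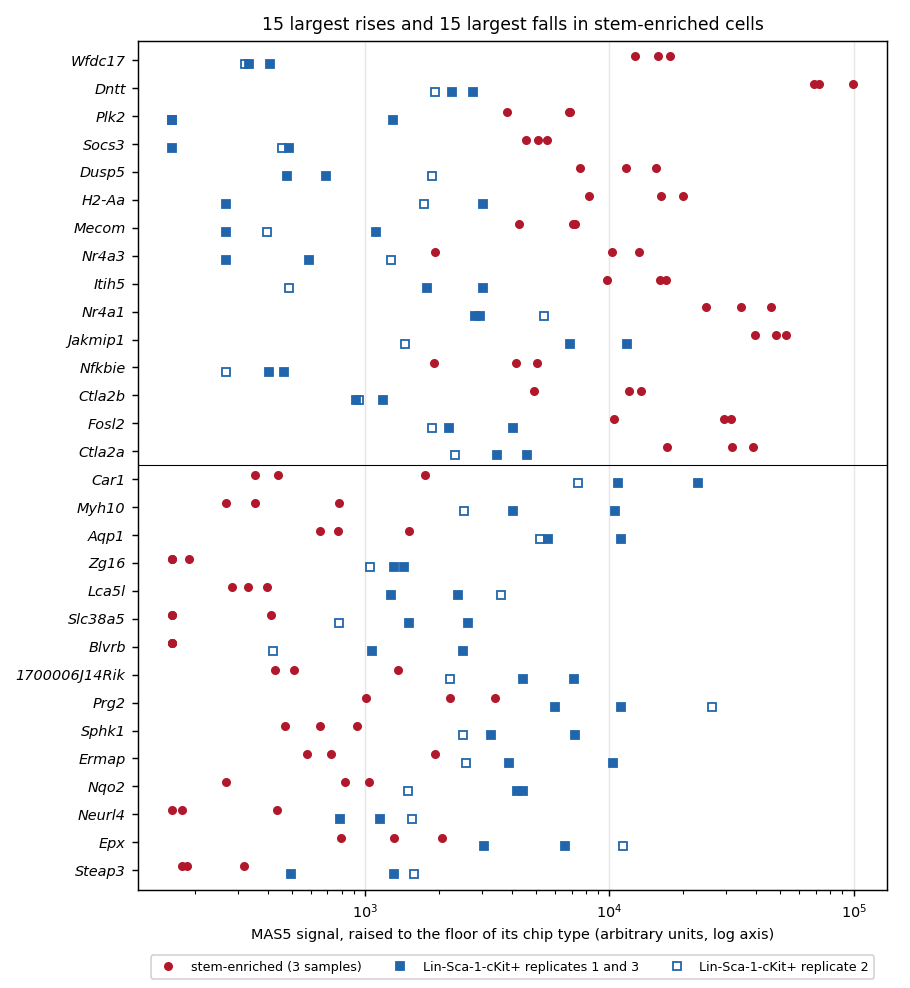
Signal (log axis, arbitrary units) of the 15 genes with the largest rises (top) and the 15 with the largest falls (bottom), 1 point per sample, with stem-enriched cells drawn above Lin-Sca-1-cKit+ cells. By the rule that chose them the groups do not overlap; Wfdc17 and Dntt are the farthest apart.

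The largest rise among genes called in both fits was that of Wfdc17, a small secreted WAP-domain protein of myeloid cells. Its signal was 12754, 17659 and 15815 in stem-enriched cells, against 409, 322 and 333 in Lin-Sca-1-cKit+ cells. The difference was 5.44 ± 0.28 (SE; adjusted p = 2.21e-09) and 5.37 ± 0.29 (adjusted p = 4.44e-09) without replicate 2, a 43.3-fold rise. Dntt, the terminal transferase that adds bases at the joints of rearranging antigen receptor genes, had a signal of 71890, 69052 and 99080 in stem-enriched cells, against 2274, 1927 and 2770 in Lin-Sca-1-cKit+ cells. It rose by 5.10 ± 0.60 (SE; adjusted p = 3.05e-04) and 4.98 ± 0.66 (adjusted p = 7.05e-04) without replicate 2, with all 3 of its probe sets called. The mean difference over the 3 was 3.52. Wfdc17 kept its call in every fit run, though as a probe set of chip type B it was not touched by the lot and scan day alternatives on chip type A. Dntt lost its call when replicate 2 was left out of the fit with the Gapdh covariate (difference 3.05, adjusted p = 0.405).

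Dntt belongs to a list of genes of early lymphoid progenitors, of which 10 of 29 tested members rose and 0 fell (median log2 difference 1.03), and 10 rose and 0 fell without replicate 2 (median 1.04). The fits with and without replicate 2 shared 9 of these calls. Vpreb1, a part of the surrogate light chain of the pre-B receptor, had a signal of 1327, 717 and 2407 in stem-enriched cells, against 162, 162 and 181 in Lin-Sca-1-cKit+ cells. Ltb, a membrane cytokine of the TNF family, had 579, 1007 and 1790 in stem-enriched cells, against 162, 162 and 162 in Lin-Sca-1-cKit+ cells. All Lin-Sca-1-cKit+ samples were at the floor for Ltb, so its rise was at least 6.25-fold (adjusted p = 0.00144, and 0.00184 without replicate 2). Satb1, a chromatin organiser of lymphocytes, had 5187, 4737 and 5673 in stem-enriched cells, against 1467, 985 and 1170 in Lin-Sca-1-cKit+ cells, a difference of 2.12 ± 0.22 (SE; adjusted p = 1.58e-04) and 1.98 ± 0.21 (adjusted p = 1.64e-04) without replicate 2. The mean over its 5 tested probe sets was 1.12, and 4 of them had this sign. Flt3, the cytokine receptor of multipotent and lymphoid progenitors, had 5721, 6426 and 9621 in stem-enriched cells, against 1360, 2486 and 1359 in Lin-Sca-1-cKit+ cells. Its groups did not overlap and it rose by 2.09 ± 0.37 (SE; adjusted p = 0.00654) and 2.38 ± 0.38 (adjusted p = 0.00265) without replicate 2. Notch1, a receptor needed for T cell fate, rose by 1.43 (adjusted p = 0.0128), and 1.45 (adjusted p = 0.0167) without replicate 2. For the lymphoid list the count of 10 higher became 5 without stem-enriched replicate 2, 3 without stem-enriched replicate 3, 5 with the Gapdh covariate, 5 with scan day as a random block and 4 within the shared chip lot. Il7r, the receptor that supports lymphoid progenitors, overlapped between the groups with all samples. It did not overlap without replicate 2 and passed only then (adjusted p = 0.186 with and 0.00233 without it). Among markers of later B cells, 2 of 22 tested members rose and 0 fell (median log2 difference 0.39), and 2 rose and 0 fell without replicate 2 (median 0.68), and the called ones were Ighm, the IgM heavy chain, with 5 of 7 probe sets of this sign and a mean of 0.39 over them all, and Sdc1, a plasma cell proteoglycan. For the mature B cell list the count of 2 higher became 1 without stem-enriched replicate 2, 0 without stem-enriched replicate 3, 1 without Lin-Sca-1-cKit+ replicate 3, 0 with the Gapdh covariate, 1 with scan day as a random block and 0 within the shared chip lot. The summed signal of 23 mature B cell genes was 44115 to 62802 in stem-enriched cells, against 32927 to 41159 in Lin-Sca-1-cKit+ cells; its part in the lymphoid result was not tested.

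Of antigen presentation and dendritic cell genes, 7 of 21 tested members rose and 0 fell (median log2 difference 0.48), and 8 rose and 0 fell without replicate 2 (median 0.72). H2-Aa, an alpha chain of MHC class II, had 20075, 8267 and 16216 in stem-enriched cells, against 3048, 1744 and 268 in Lin-Sca-1-cKit+ cells. The lowest stem-enriched value lay above the highest Lin-Sca-1-cKit+ value, and the difference was 3.63 ± 0.58 (SE; adjusted p = 0.00229) and 3.94 ± 0.62 (adjusted p = 0.00164) without replicate 2. The mean over the 4 tested probe sets of H2-Aa was 2.16, and 2 of them were called. H2-Ob, a chain of the class II regulator H2-O, rose by 2.33 ± 0.34 (SE; adjusted p = 0.00108) and 2.12 ± 0.34 (adjusted p = 0.00229) without replicate 2. Ctss, the cathepsin that trims the class II invariant chain, rose by 1.41 (adjusted p = 0.00288), and 1.26 (adjusted p = 0.00415) without replicate 2. For the antigen presentation list the count of 7 higher became 4 without stem-enriched replicate 2, 3 without stem-enriched replicate 3, 4 without Lin-Sca-1-cKit+ replicate 3, 4 with scan day as a random block and 3 within the shared chip lot.

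Of the GTPases of the immunity-associated GIMAP family with the interferon-induced GBP and IRG families, 7 of 16 tested members rose and 0 fell (median log2 difference 1.22), and 9 rose and 0 fell without replicate 2 (median 1.82). None of the 16 had a negative difference with all samples. For the GTPase list the count of 7 higher became 4 without stem-enriched replicate 2 and 3 without stem-enriched replicate 3. Gimap1 had 1225, 1883 and 2635 in stem-enriched cells, against 506, 162 and 162 in Lin-Sca-1-cKit+ cells, and rose by 2.94 ± 0.39 (SE; adjusted p = 9.10e-04) and 2.67 ± 0.40 (adjusted p = 0.00175) without replicate 2. Gimap8 had 5054, 8904 and 7015 in stem-enriched cells, against 538, 1572 and 1642 in Lin-Sca-1-cKit+ cells, and rose by 2.61 ± 0.45 (SE; adjusted p = 0.00372) and 2.86 ± 0.47 (adjusted p = 0.00261) without replicate 2. GIMAP proteins are known for supporting lymphocyte survival. Of interferon response genes, 4 of 34 tested members rose and 0 fell (median log2 difference 0.48), and 5 rose and 0 fell without replicate 2 (median 0.46). Rsad2, the antiviral enzyme viperin, had 14177, 8418 and 10404 in stem-enriched cells, against 3833, 1700 and 1475 in Lin-Sca-1-cKit+ cells, and Ifitm1, a membrane protein that restricts virus entry, had 21905, 24043 and 15776 in stem-enriched cells, against 10132, 9160 and 5146 in Lin-Sca-1-cKit+ cells. Neither gene overlapped between the groups, and the difference of Rsad2 was 2.34 (adjusted p = 0.00264), and 2.18 (adjusted p = 0.00591) without replicate 2. That of Ifitm1 was 1.37 (adjusted p = 0.0107), and 1.49 (adjusted p = 0.00726) without replicate 2. The mean over the 3 probe sets of Rsad2 was 1.30. For the interferon list the count of 4 higher became 2 with the Gapdh covariate, 2 with scan day as a random block and 1 within the shared chip lot.

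Transcription factors and surface proteins of stem cells were next. Of the factors, 4 of 29 tested members rose and 0 fell (median log2 difference 0.45), and 4 rose and 0 fell without replicate 2 (median 0.41). Only 3 were called in both fits: Erg was called only with replicate 2 and Id3 only without it. With all samples 22 differences were positive and 7 negative, the lowest that of Hoxb3 (-0.98, not called). Mecom, a zinc finger factor required by long-term stem cells, had 4256, 7198 and 7078 in stem-enriched cells, against 268, 397 and 1109 in Lin-Sca-1-cKit+ cells. It rose by 3.61 ± 0.56 (SE; adjusted p = 0.00203) and 3.46 ± 0.62 (adjusted p = 0.00451) without replicate 2, though only 1 of its 2 tested probe sets had this sign and their mean was 1.70. Hlf, a bZIP factor of stem cells, had 3873, 5832 and 6442 in stem-enriched cells, against 886, 1508 and 2016 in Lin-Sca-1-cKit+ cells, a difference of 1.92 ± 0.28 (SE; adjusted p = 0.00169) and 1.98 ± 0.30 (adjusted p = 0.00185) without replicate 2. Hoxa9, a homeobox factor of immature cells, had 12331, 13746 and 12935 in stem-enriched cells, against 5679, 589 and 3268 in Lin-Sca-1-cKit+ cells. Replicate 2 was the lowest, and the difference was 2.55 ± 0.53 (SE; adjusted p = 0.0193) and 1.59 ± 0.27 (adjusted p = 0.00415) without replicate 2. The mean over the 2 tested probe sets of Hoxa9 was 1.28, and 1 of them was called. For the stem factor list the count of 4 higher became 2 without stem-enriched replicate 2, 2 without stem-enriched replicate 3, 7 without Lin-Sca-1-cKit+ replicate 1, 2 with the Gapdh covariate, 2 with scan day as a random block and 1 within the shared chip lot. Of the surface genes, 2 of 19 tested members rose and 0 fell (median log2 difference 0.41), and 4 rose and 0 fell without replicate 2 (median 0.67). With all samples 13 surface differences were positive and 6 negative, the lowest that of Slamf1 (-0.66, not called). For the stem surface list the count of 2 higher became 0 without stem-enriched replicate 3, 4 with the Gapdh covariate and 0 within the shared chip lot. Procr, the endothelial protein C receptor that marks stem cells, had 895, 2076 and 1992 in stem-enriched cells, against 229, 391 and 162 in Lin-Sca-1-cKit+ cells, and rose by 2.66 ± 0.46 (SE; adjusted p = 0.00509) and 3.01 ± 0.45 (adjusted p = 0.00183) without replicate 2. Cd34, a sialomucin of progenitors, had 9929, 16396 and 16451 in stem-enriched cells, against 6913, 4966 and 7964 in Lin-Sca-1-cKit+ cells. Its groups did not overlap but it missed the threshold, with a difference of 1.10 (adjusted p = 0.0593), and 0.90 (adjusted p = 0.121) without replicate 2. Meis1, the cofactor of Hox proteins, also missed it by its brightest probe set, with 1.05 (adjusted p = 0.0879), and 0.92 (adjusted p = 0.15) without replicate 2. All 3 of its tested probe sets had this sign, with a mean of 1.28, and 1 of them was called with all samples. Runx1, a factor needed to form blood stem cells, had 11438, 16313 and 10799 in stem-enriched cells, against 9990, 862 and 6708 in Lin-Sca-1-cKit+ cells. Its difference was 1.71 (adjusted p = 0.121), and 0.63 (adjusted p = 0.198) without replicate 2, so that replicate 2, the lowest, moved the fold to 3.27, against 1.54 without it. Only 3 of the 6 tested probe sets of Runx1 had this sign, and the mean over all 6 was 0.04.

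Genes that cells switch on soon after a stimulus, the immediate early genes, had positive differences for 43 of 47 tested members: 15 of 47 tested members rose and 0 fell (median log2 difference 1.15), and 17 rose and 1 fell without replicate 2 (median 1.07). Nr4a1, an orphan nuclear receptor, had 24815, 45846 and 34670 in stem-enriched cells, against 2806, 5379 and 2961 in Lin-Sca-1-cKit+ cells. Its groups did not overlap, and it rose by 3.26 ± 0.35 (SE; adjusted p = 1.70e-04) and 3.56 ± 0.34 (adjusted p = 6.50e-05) without replicate 2. Plk2, a polo-like kinase, had 3799, 6842 and 6911 in stem-enriched cells, against 162, 162 and 1305 in Lin-Sca-1-cKit+ cells. It rose by 4.12 ± 0.57 (SE; adjusted p = 0.00108) and 3.62 ± 0.57 (adjusted p = 0.00263) without replicate 2, but its second probe set had the opposite sign and the mean of both was 1.72. Dusp5, a nuclear phosphatase of ERK, had 7611, 15479 and 11647 in stem-enriched cells, against 476, 1877 and 692 in Lin-Sca-1-cKit+ cells, a difference of 3.71 ± 0.52 (SE; adjusted p = 8.83e-04) and 4.28 ± 0.49 (adjusted p = 1.64e-04) without replicate 2. Nr4a3, a relative of Nr4a1, had 1931, 10231 and 13211 in stem-enriched cells, against 268, 1277 and 586 in Lin-Sca-1-cKit+ cells, the most uneven of these in stem-enriched cells. It rose by 3.45 ± 0.87 (SE; adjusted p = 0.045) and 4.01 ± 0.93 (adjusted p = 0.025) without replicate 2. The mean over its 2 tested probe sets was 1.97, and 1 of them was called. Fosl2, a partner of Jun in AP-1, rose by 3.06 ± 0.47 (SE; adjusted p = 0.00167) and 2.84 ± 0.49 (adjusted p = 0.00352) without replicate 2, but its second probe set had the opposite sign and the mean of both was 1.38. Fos itself, named after its values were seen, did not pass. For the immediate early list the count of 15 higher became 8 without stem-enriched replicate 2, 9 without stem-enriched replicate 3, 7 with the Gapdh covariate and 8 within the shared chip lot.

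Promoter sequences are shown for 2 of these genes because their proximal promoters carry cyclic AMP response motifs, and for the Ctla2 pair because these closely related genes both rose. Each is the 250 bases before the RefSeq start (GRCm38.p6), 5′ to 3′, with motif matches on either strand in capitals.
Nr4a1 (chr15:101266596-101266845, + strand), TGCGTCA in capitals: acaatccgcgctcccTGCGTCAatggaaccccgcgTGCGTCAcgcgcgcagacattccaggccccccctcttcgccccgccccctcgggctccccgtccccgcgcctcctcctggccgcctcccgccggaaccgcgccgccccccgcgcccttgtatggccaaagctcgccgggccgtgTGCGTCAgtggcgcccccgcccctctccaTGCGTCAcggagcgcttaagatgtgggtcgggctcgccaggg
Plk2 (chr13:110394794-110395043, + strand), TGACGTCA in capitals: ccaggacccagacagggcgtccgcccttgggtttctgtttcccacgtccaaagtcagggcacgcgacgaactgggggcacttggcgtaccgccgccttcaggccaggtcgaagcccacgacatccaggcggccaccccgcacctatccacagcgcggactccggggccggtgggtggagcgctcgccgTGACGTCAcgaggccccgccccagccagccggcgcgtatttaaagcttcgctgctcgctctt
Ctla2a (chr13:60936626-60936875, - strand), TGANTCA in capitals: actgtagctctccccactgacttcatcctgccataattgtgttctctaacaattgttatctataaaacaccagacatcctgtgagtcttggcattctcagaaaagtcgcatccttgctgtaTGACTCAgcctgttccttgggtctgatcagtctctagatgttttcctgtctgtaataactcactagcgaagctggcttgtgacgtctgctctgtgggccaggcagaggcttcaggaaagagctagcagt
Ctla2b (chr13:60897448-60897697, - strand), TGANTCA in capitals: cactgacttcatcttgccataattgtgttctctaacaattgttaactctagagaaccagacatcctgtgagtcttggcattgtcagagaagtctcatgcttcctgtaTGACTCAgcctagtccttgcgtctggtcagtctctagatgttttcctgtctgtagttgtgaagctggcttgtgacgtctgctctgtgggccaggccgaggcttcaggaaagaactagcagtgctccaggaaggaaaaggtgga
Nr4a1 held 4 copies of TGCGTCA, a motif found in 1.75% of all promoter windows of this length. TGACGTCA, the full cyclic AMP response element, was found in 1.55% and TGANTCA, the AP-1 motif, in 6.75%. Among windows of tested genes, TGCGTCA was found in 2.55%, TGACGTCA in 2.33% and TGANTCA in 5.04%. Among windows of genes called higher, the shares were 2.74%, 2.05% and 7.53% in the same order, and no difference was tested. These matches describe the letters and do not show binding. Ctla2a and Ctla2b encode cysteine protease inhibitors, and their probe sets may share transcripts, so their values are uncertain as separate genes. Ctla2a had 17132, 38546 and 31698 in stem-enriched cells, against 3473, 2326 and 4596 in Lin-Sca-1-cKit+ cells, and rose by 3.05 ± 0.35 (SE; adjusted p = 2.61e-04) and 2.79 ± 0.35 (adjusted p = 4.78e-04) without replicate 2. Ctla2b had 4913, 12046 and 13438 in stem-enriched cells, against 914, 947 and 1181 in Lin-Sca-1-cKit+ cells, and rose by 3.20 ± 0.40 (SE; adjusted p = 5.47e-04) and 3.16 ± 0.44 (adjusted p = 0.00105) without replicate 2.

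Signal feedback genes overlap in part with the immediate early list, and 6 of 40 tested members rose and 0 fell (median log2 difference 0.39), and 9 rose and 0 fell without replicate 2 (median 0.49). Socs3, which blocks cytokine receptor signalling, had 4556, 5532 and 5081 in stem-enriched cells, against 162, 454 and 488 in Lin-Sca-1-cKit+ cells, and rose by 3.93 ± 0.34 (SE; adjusted p = 2.30e-05) and 4.16 ± 0.35 (adjusted p = 1.70e-05) without replicate 2. The mean over its 3 probe sets was 2.53. For the signal feedback list the count of 6 higher became 3 without stem-enriched replicate 3 and 3 with the Gapdh covariate. Pim1, a survival kinase, had 80684, 67449 and 84309 in stem-enriched cells, against 21949, 4534 and 28876 in Lin-Sca-1-cKit+ cells. Replicate 2 was the lowest, and the difference was 2.44 ± 0.46 (SE; adjusted p = 0.00891) and 1.62 ± 0.20 (adjusted p = 4.78e-04) without replicate 2. Rgs2, which shortens G protein signals, had 98757, 105728 and 92150 in stem-enriched cells, against 32461, 3039 and 22333 in Lin-Sca-1-cKit+ cells, with a difference of 2.92 ± 0.59 (SE; adjusted p = 0.0111) and 1.87 ± 0.24 (adjusted p = 4.24e-04) without replicate 2. The fold was 7.59 with replicate 2 and 3.67 without it. The mean over the 4 tested probe sets of Rgs2 was 1.60, and 2 of them were called. Of genes that restrain or gate cell cycle entry, 4 of 26 tested members rose and 0 fell (median log2 difference 0.17), and 5 rose and 0 fell without replicate 2 (median 0.32). Cdkn1a, the inhibitor p21, had 9698, 19716 and 18024 in stem-enriched cells, against 2195, 4559 and 4417 in Lin-Sca-1-cKit+ cells, and rose by 2.09 ± 0.47 (SE; adjusted p = 0.0286) and 2.28 ± 0.52 (adjusted p = 0.0252) without replicate 2. Trp53inp1, a p53 target, rose by 1.70 (adjusted p = 0.00529), and 1.42 (adjusted p = 0.0109) without replicate 2. For the cycle entry list the count of 4 higher became 1 without stem-enriched replicate 2, 1 without stem-enriched replicate 3, 2 with the Gapdh covariate, 1 with scan day as a random block and 1 within the shared chip lot. Of mitosis genes, 0 of 52 tested members rose and 0 fell (median log2 difference 0.05), and 0 rose and 0 fell without replicate 2 (median -0.16) in limma, and 9 of them with and 8 without replicate 2 had an unadjusted p under 0.05. Of DNA replication genes, 0 of 48 tested members rose and 0 fell (median log2 difference 0.07), and 0 rose and 1 fell without replicate 2 (median -0.17) in limma, and 5 of them with and 5 without replicate 2 had an unadjusted p under 0.05. Of the Notch, Wnt and TGF-beta genes, 6 of 45 tested members rose and 0 fell (median log2 difference 0.07), and 6 rose and 0 fell without replicate 2 (median 0.32). Calls shared by both fits numbered 5, among them Ltbp3 and Smad4. Ltbp3, which helps to store latent TGF-beta, rose by 2.02 ± 0.28 (SE; adjusted p = 0.00108) and 1.88 ± 0.29 (adjusted p = 0.00195) without replicate 2. Smad4, the shared Smad of the pathway, rose by 1.57 ± 0.29 (SE; adjusted p = 0.00821) and 1.19 ± 0.23 (adjusted p = 0.0102) without replicate 2. For the Notch, Wnt and TGF-beta list the count of 6 higher became 2 without stem-enriched replicate 2, 1 without stem-enriched replicate 3, 3 with the Gapdh covariate, 2 with scan day as a random block and 2 within the shared chip lot.

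**Figure D3:**
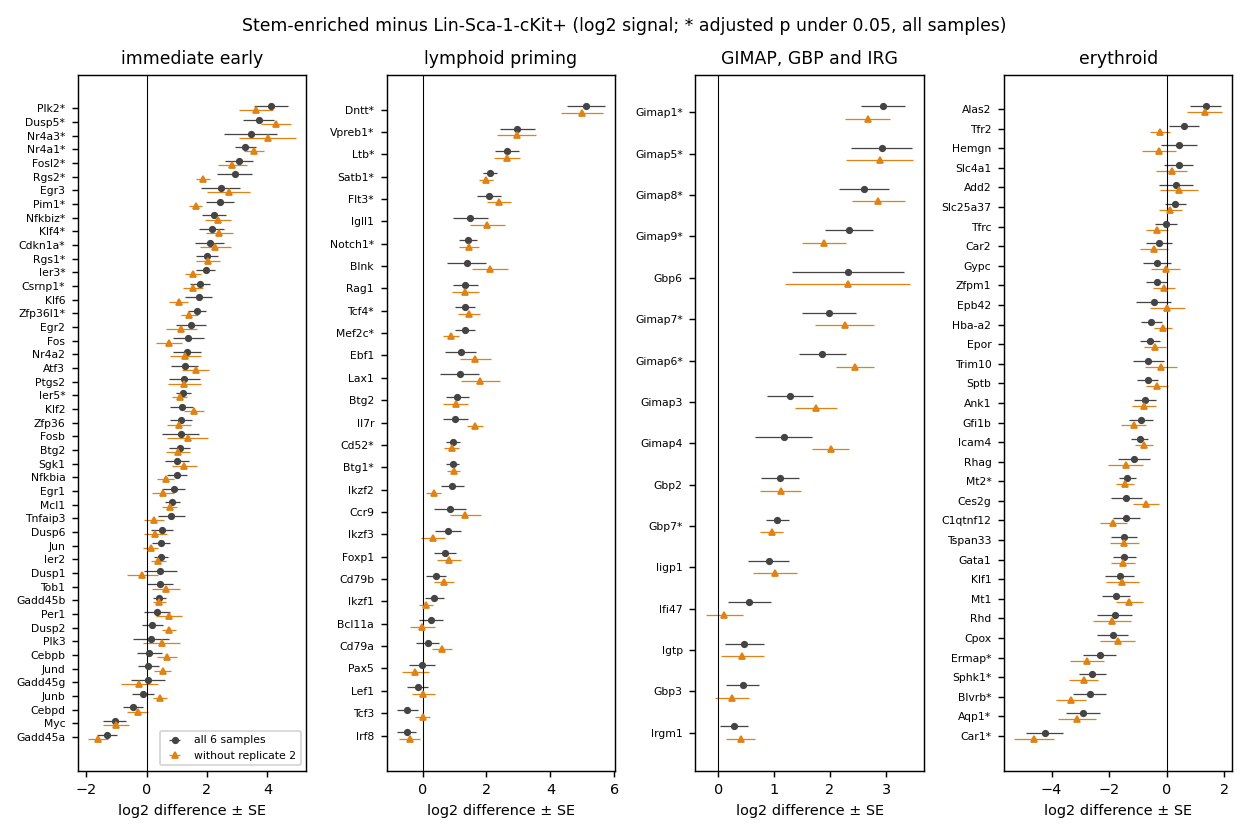
Log2 difference ± SE, stem-enriched minus Lin-Sca-1-cKit+, of every tested member of 4 lists, with all 6 samples (circles) and without replicate 2 (triangles); an asterisk marks genes called with all samples. Most immediate early, lymphoid and GIMAP members lie right of 0 and most erythroid members left of it.

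Of erythroid genes, 0 of 33 tested members rose and 6 fell (median log2 difference -0.91), and 0 rose and 7 fell without replicate 2 (median -0.79). Car1, the carbonic anhydrase of early erythroid cells, had 1762, 354 and 439 in stem-enriched cells, against 23017, 7459 and 10811 in Lin-Sca-1-cKit+ cells, and fell with a difference of -4.24 ± 0.64 (SE; adjusted p = 0.00222) and -4.60 ± 0.69 (adjusted p = 0.00183) without replicate 2. Aqp1, the red cell water channel, had 1510, 650 and 775 in stem-enriched cells, against 11189, 5209 and 5577 in Lin-Sca-1-cKit+ cells, and its groups did not overlap. It fell with a difference of -2.91 ± 0.60 (SE; adjusted p = 0.0166) and -3.11 ± 0.66 (adjusted p = 0.0176) without replicate 2. Blvrb, biliverdin reductase B, was at the floor in all stem-enriched samples, against 2525, 419 and 1061 in Lin-Sca-1-cKit+ cells, so it was at least 6.4-fold lower (adjusted p = 0.0224), and at least 10.1-fold lower without replicate 2 (adjusted p = 0.00295). Ermap, an erythroid membrane protein, had 1929, 724 and 579 in stem-enriched cells, against 10338, 2592 and 3861 in Lin-Sca-1-cKit+ cells, a difference of -2.33 ± 0.57 (SE; adjusted p = 0.0433) and -2.76 ± 0.59 (adjusted p = 0.0188) without replicate 2. Gata1, the master factor of the lineage, had 1538, 984 and 1206 in stem-enriched cells, against 5635, 3127 and 2179 in Lin-Sca-1-cKit+ cells; the groups did not overlap, but it missed the threshold, with -1.47 (adjusted p = 0.0576), and -1.52 (adjusted p = 0.0672) without replicate 2. Klf1, its partner at globin genes, also missed it, with -1.64 (adjusted p = 0.113), and -1.55 (adjusted p = 0.178) without replicate 2. For the erythroid list the count of 6 lower became 2 without stem-enriched replicate 2, 1 without stem-enriched replicate 3, 3 with the Gapdh covariate, 2 with scan day as a random block and 2 within the shared chip lot. The summed signal of 34 erythroid genes was 59913 to 66156 in stem-enriched cells, against 95962 to 173317 in Lin-Sca-1-cKit+ cells. Of heme and iron genes, 0 of 21 tested members rose and 3 fell (median log2 difference -0.22), and 0 rose and 2 fell without replicate 2 (median -0.35). Steap3, the endosomal ferrireductase, fell with a difference of -2.20 ± 0.46 (SE; adjusted p = 0.0182) and -1.88 ± 0.47 (adjusted p = 0.0429) without replicate 2. The mean over its 2 probe sets was -1.12. For the heme and iron list the count of 3 lower became 1 without stem-enriched replicate 2, 0 without stem-enriched replicate 3, 1 without Lin-Sca-1-cKit+ replicate 3, 0 with the Gapdh covariate, 0 with scan day as a random block and 0 within the shared chip lot.

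Of mast cell and eosinophil genes, 0 of 21 tested members rose and 3 fell (median log2 difference -0.51), and 0 rose and 4 fell without replicate 2 (median -0.30). Prg2, the eosinophil major basic protein, had 3384, 1008 and 2214 in stem-enriched cells, against 11195, 26269 and 5968 in Lin-Sca-1-cKit+ cells, and Epx, eosinophil peroxidase, had 2060, 796 and 1308 in stem-enriched cells, against 6603, 11324 and 3076 in Lin-Sca-1-cKit+ cells. Replicate 2 was the highest for both, and the differences were -2.62 ± 0.46 (SE; adjusted p = 0.00553) and -2.06 ± 0.40 (adjusted p = 0.0101) without replicate 2 for Prg2 and -2.25 ± 0.39 (SE; adjusted p = 0.00509) and -1.81 ± 0.35 (adjusted p = 0.0103) without replicate 2 for Epx. Cpa3, the mast cell carboxypeptidase, had 3360, 3110 and 3423 in stem-enriched cells, against 8039, 6028 and 8133 in Lin-Sca-1-cKit+ cells, with a difference of -1.15 ± 0.19 (SE; adjusted p = 0.00434) and -1.30 ± 0.18 (adjusted p = 0.00101) without replicate 2. For the mast cell and eosinophil list the count of 3 lower became 6 without stem-enriched replicate 1 and 0 within the shared chip lot. Of primary granule genes, 0 of 25 tested members rose and 0 fell (median log2 difference -1.01), and 0 rose and 1 fell without replicate 2 (median -0.89); 23 of 25 differences were negative, but with all samples none passed in limma, and 14 of them with and 16 without replicate 2 had an unadjusted p under 0.05. Without stem-enriched replicate 1, 13 of the primary granule genes fell, and 2 without Lin-Sca-1-cKit+ replicate 1. Of late granulocyte genes, 1 of 21 tested members rose and 0 fell (median log2 difference 0.61), and 2 rose and 0 fell without replicate 2 (median 0.80); the called one was Ngp, a granule protein, which had 32551, 15970 and 33559 in stem-enriched cells, against 11548, 6542 and 11063 in Lin-Sca-1-cKit+ cells. The summed signal of 21 late granulocyte genes was 55213 to 107905 in stem-enriched cells, against 44170 to 60744 in Lin-Sca-1-cKit+ cells. The ranges overlapped. For the late granulocyte list the count of 1 higher became 0 without stem-enriched replicate 1, 0 without stem-enriched replicate 3, 2 with the Gapdh covariate, 0 with scan day as a random block and 0 within the shared chip lot. Mature myeloid cells also express Wfdc17, and the part of this sum in its rise was not tested. Of megakaryocyte genes, 0 of 23 tested members rose and 0 fell (median log2 difference -0.42), and 0 rose and 1 fell without replicate 2 (median -0.24) in limma, and 7 of them with and 7 without replicate 2 had an unadjusted p under 0.05. Of stromal and endothelial genes, 0 of 21 tested members rose and 0 fell (median log2 difference 0.27), and 2 rose and 0 fell without replicate 2 (median 0.58) in limma, and 7 of them with and 8 without replicate 2 had an unadjusted p under 0.05. The summed signal of 30 of these genes was 29401 to 38625 in stem-enriched cells, against 19921 to 34916 in Lin-Sca-1-cKit+ cells. Of T and NK cell genes, 0 of 20 tested members rose and 1 fell (median log2 difference -0.16), and 2 rose and 1 fell without replicate 2 (median 0.20), and the summed signal of 25 of them was 21998 to 27095 in stem-enriched cells, against 27413 to 39969 in Lin-Sca-1-cKit+ cells. Gzmb, a granule protease of cytotoxic cells, had 342, 162 and 162 in stem-enriched cells, against 1570, 594 and 824 in Lin-Sca-1-cKit+ cells, with a difference of -2.14 ± 0.41 (SE; adjusted p = 0.0112) and -2.45 ± 0.42 (adjusted p = 0.00449) without replicate 2. For the T and NK cell list the count of 1 lower became 2 without stem-enriched replicate 1, 0 without stem-enriched replicate 2, 0 without stem-enriched replicate 3, 2 without Lin-Sca-1-cKit+ replicate 1 and 0 within the shared chip lot.

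Myh10, a nonmuscle myosin heavy chain, had 354, 778 and 268 in stem-enriched cells, against 10534, 2546 and 4033 in Lin-Sca-1-cKit+ cells, and fell with a difference of -3.51 ± 0.63 (SE; adjusted p = 0.00516) and -3.96 ± 0.66 (adjusted p = 0.00265) without replicate 2. The mean over its 2 probe sets was -1.96. Myh9, its close relative, rose by 1.07 (adjusted p = 0.0216), and 0.92 (adjusted p = 0.0335) without replicate 2, but 3 of its 5 tested probe sets had the opposite sign and the mean was 0.10. Of genes of protein entry and folding in the endoplasmic reticulum, 0 of 44 tested members rose and 6 fell (median log2 difference -0.32), and 0 rose and 7 fell without replicate 2 (median -0.51). Pdia3, a disulfide isomerase, had 3149, 2889 and 2850 in stem-enriched cells, against 6919, 6639 and 7809 in Lin-Sca-1-cKit+ cells, with a difference of -1.26 ± 0.19 (SE; adjusted p = 0.00222) and -1.31 ± 0.19 (adjusted p = 0.00151) without replicate 2. The mean over its 2 probe sets was -0.95. Ddost, a subunit of the enzyme that attaches sugars to new proteins, had 7710, 4906 and 4766 in stem-enriched cells, against 9845, 15232 and 16209 in Lin-Sca-1-cKit+ cells, a difference of -1.25 ± 0.26 (SE; adjusted p = 0.0196) and -1.16 ± 0.28 (adjusted p = 0.0324) without replicate 2. For the endoplasmic reticulum list the count of 6 lower became 2 without stem-enriched replicate 2, 2 without stem-enriched replicate 3, 2 with scan day as a random block and 0 within the shared chip lot. Of ribosome biogenesis genes, 0 of 45 tested members rose and 3 fell (median log2 difference -0.21), and 0 rose and 3 fell without replicate 2 (median -0.44). Only 2 of these calls were the same in both fits. Fbl, the methyltransferase of ribosomal RNA, had 7613, 5769 and 4275 in stem-enriched cells, against 14674, 10757 and 21320 in Lin-Sca-1-cKit+ cells, a difference of -1.39 ± 0.27 (SE; adjusted p = 0.0115) and -1.63 ± 0.26 (adjusted p = 0.00265) without replicate 2. For the ribosome biogenesis list the count of 3 lower became 0 without stem-enriched replicate 2, 0 without stem-enriched replicate 3, 0 with scan day as a random block and 0 within the shared chip lot. Of respiratory chain genes, 0 of 65 tested members rose and 1 fell (median log2 difference -0.17), and 0 rose and 4 fell without replicate 2 (median -0.22). For the respiratory chain list the count of 1 lower became 2 without stem-enriched replicate 1, 0 without stem-enriched replicate 2, 0 without stem-enriched replicate 3, 3 without Lin-Sca-1-cKit+ replicate 1, 2 without Lin-Sca-1-cKit+ replicate 3, 0 with scan day as a random block and 0 within the shared chip lot.

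**Figure D4:**
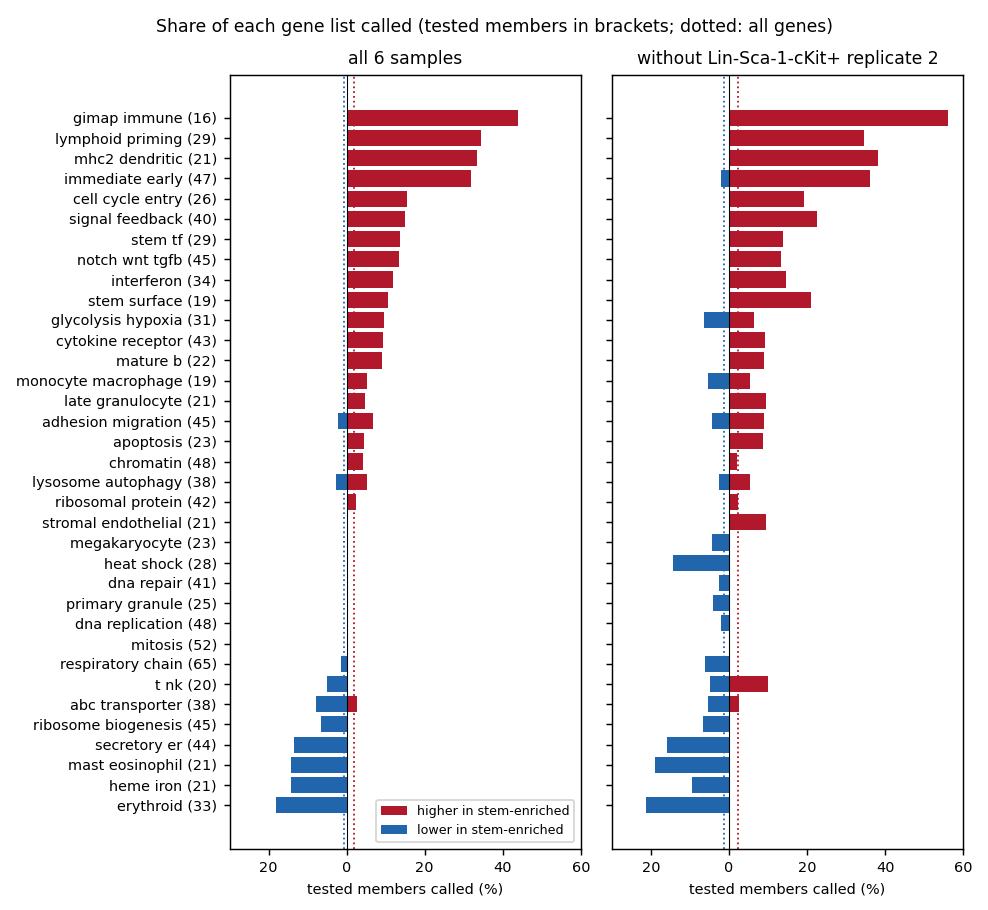
Share of tested members of each gene list called higher (right of 0) or lower (left of 0) in stem-enriched cells, with all 6 samples and without Lin-Sca-1-cKit+ replicate 2; dotted lines give the share over all genes. The GIMAP, lymphoid, MHC class II and immediate early lists lie farthest right, and the erythroid list is farthest left.

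Of 31 tested regulators of lineage choice, 5 rose and 0 fell in limma, and 6 rose without replicate 2. For the regulator list the count of 5 higher became 3 without stem-enriched replicate 2, 1 without stem-enriched replicate 3, 3 with scan day as a random block and 2 within the shared chip lot. Spi1, the factor PU.1, had 2373, 2543 and 2694 in stem-enriched cells, against 1846, 3911 and 1487 in Lin-Sca-1-cKit+ cells, a difference of 0.20 (adjusted p = 0.809), and 0.61 (adjusted p = 0.195) without replicate 2. Gata2, a stem cell and progenitor factor, had 5100, 5260 and 4774 in stem-enriched cells, against 5688, 5323 and 3909 in Lin-Sca-1-cKit+ cells, a difference of 0.04 (adjusted p = 0.958), and 0.10 (adjusted p = 0.882) without replicate 2. The mean over the 2 probe sets of Gata2 was -0.39, since they differ in sign. Both genes overlapped between the groups with all samples, but Spi1 did not without replicate 2. Cebpa, the factor of granulocyte progenitors, had 1314, 645 and 960 in stem-enriched cells, against 1298, 5391 and 1327 in Lin-Sca-1-cKit+ cells, with replicate 2 far above the rest. Its difference was -1.17 (adjusted p = 0.192), and -0.49 (adjusted p = 0.475) without replicate 2, which is 2.25-fold lower with replicate 2 and 1.41-fold lower without it. Myc, the growth regulator, had 3566, 1574 and 1326 in stem-enriched cells, against 6091, 4248 and 2552 in Lin-Sca-1-cKit+ cells, a difference of -1.05 (adjusted p = 0.18), and -1.01 (adjusted p = 0.24) without replicate 2. Myb, required for progenitor growth, had 27347, 22823 and 16867 in stem-enriched cells, against 30923, 21489 and 32395 in Lin-Sca-1-cKit+ cells, a difference of -0.34 (adjusted p = 0.554), and -0.53 (adjusted p = 0.307) without replicate 2. Among the 31, Procr, Flt3, Hoxa9, Mecom, Notch1, Cd34, Meis1 and Runx1 were higher without overlap with all samples, and Gata1 and Klf1 lower. Over all genes, groups without overlap made up 9.3% (higher) and 7.32% (lower). The regulators not named above were 14, Csf1r, Csf2ra, Csf3r, Epor, Zfpm1, Gfi1, Gfi1b, Ikzf1, Tal1, Lmo2, Mycn, Irf8, Pax5 and Ebf1. All 14 overlapped between the groups with all samples. This is no result, since the regulators without overlap had already been described. Without replicate 2, Gfi1b and Ebf1 did not overlap. The differences of the 14 ran from -0.91 (Gfi1b) to 1.19 (Ebf1), and from -1.15 to 1.65 without replicate 2. The mean over the 3 tested probe sets of Ebf1 was 0.22, and 2 of them were positive. Read by their brightest probe sets, none of the 14 passed in limma, where the lowest adjusted p was 0.16, and 0.0778 without replicate 2. Of the 14, 3 had an unadjusted p under 0.05 in each fit. Of all 31 regulators, 16 had such a p in limma, and 17 without replicate 2. Over all probe sets, 4647 of 28949 did with all samples. For Csf1r, 1 of its 3 tested probe sets was called with all samples, and the mean over the 3 was -0.595. A p above the threshold does not show that these levels were alike.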

How the data were processed

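Intensity values were the signals deposited by the authors for chip types A and B, made with MAS5 per the submitters' processing notes; the 2% trimmed mean of every array was 1500.1 to 1500.7. Array records gave lot, scan day and other text as deposited. The RNA amplification used is not stated in the labels. Control probe sets, and on chip type B the probe sets shared with A, were left out. Signals were raised to the 25th percentile of their chip type (162.3 on A, 268.1 on B) and taken to log2. Probe sets were tested with at least 3 of the 16 arrays of a chip type above its median signal, 535.3 for A and 843.8 for B; 13774 of 22626 (A) and 15175 of 22411 (B) entered. The fixed design did not say whether 15 or 16 arrays count. Both were run, and 16 was kept after both results were known because an earlier analysis of these data had used it; counting the 15 fitted arrays left 28606 tested and 638 called, 426 higher and 212 lower.

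limma 3.58.1 (R 4.3.3) fitted the means of 5 populations with 15 samples per chip type, with an intensity trend, and p-values were Benjamini-Hochberg adjusted over both chip types at a threshold of 0.05. The fit was tested on simulated data, drawn as independent normal values with 1 spread per probe set in all samples. The simulation held no outlying sample and no difference in scan day or Gapdh ratio, so it cannot show how these affect the calls. Of 45037 probe sets, 34945 had 1 gene symbol, 932 several and 9160 none in the 2016 platform annotation, updated through Entrez IDs. One probe set per gene was used, that with the highest mean. Named were the 15 largest rises and falls called with and without replicate 2 and without overlap, up to 4 called members of each list, and all listed regulators. The members and lists were chosen with earlier results of these data known. Same-numbered samples did not deviate together (r = 0.052, -0.049 and -0.029), so the numbers were not used as pairs. Promoters came from RefSeq (GRCm38.p6); 99 of 118 named genes had a window.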

Additional observations from a re-analysis of the deposited data

How the results depend on the processing

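The count of 640 called probe sets (427 higher, 213 lower) lay within 1.5 times its value under quantile normalization, no floor, a higher floor, no filter, a stricter filter, the chip lot block, no variance trend and a minimum of 2-fold. Median centring left the total within that range but gave 125 lower. Under the replicate block 593 passed (402 higher, 191 lower), and the paired fit was not used since the numbers did not pair the samples. The count moved to 260 (204 higher, 56 lower) with scan day as a random block on chip type A, to 3 (3 and 0) with only the 2 compared populations, to 2582 (1433 and 1149) with array weights, to 328 (202 and 126) with the Gapdh covariate, and to 160 (135 and 25) when chip type A was limited to its first lot, an alternative chosen after seeing the data. Leaving out 1 sample of any population gave 189 to 1227 probe sets, 136 to 864 higher and 53 to 363 lower. The total was 189 without stem-enriched replicate 3, 233 without stem-enriched replicate 2 and 1227 without Lin-Sca-1-cKit+ replicate 1. Lower calls were 337 without Lin-Sca-1-cKit+ replicate 2, 135 without Lin-Sca-1-cKit+ replicate 3, 137 without lineage-depleted replicate 3 and 131 without total-marrow replicate 3. Without replicate 2, 834 passed (497 higher, 337 lower); alternatives chosen after seeing the data gave 14 (13 and 1) with only the 2 compared populations and 8 (8 and 0) with the Gapdh covariate, and 802 to 835 with quantile normalization, median centring, no floor or the filter counted over 15 arrays. The 98 called list members became 63 without a filter, 50 with scan day as a random block, 1 with only the 2 populations, 285 with array weights, 63 with the Gapdh covariate, 30 within the first lot, and 34 to 129 with 1 sample left out. Of 92 called named genes, 1 (Wfdc17) kept its call in every fit run, and 19 in all but the fits of the 2 populations and the Gapdh covariate without replicate 2. Of these 19, 10 are on chip type B, which the lot and scan day alternatives left untouched. None of the 92 changed direction in these fits. Averaging all tested probe sets of a gene, which has no test, moved the difference of 25 of 118 named genes by more than the spread between replicates. The 118 include genes with only 1 tested probe set, which could not move. The share that moved is therefore higher among genes with several probe sets. The causes were not tested, except that fewer samples enter the fits of 2 populations and of 1 lot. The number of arrays limits the precision.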

Other observations

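The single Lin-Sca-1+cKit- sample, which entered no test, had a signal of 97499 for Dntt, 100818 for H2-Aa, 13482 for Socs3 and 9879 for Vpreb1. Its Mecom signal was at the floor of 268 and its Procr signal at the floor of 162. Its Wfdc17 signal was 1545.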
